A study of Arabidopsis thaliana with 18 samples.

Results

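NAC transcription factors are a plant family that shares a DNA-binding domain named after the petunia gene NO APICAL MERISTEM and the Arabidopsis genes ATAF1 and CUC2. Genes of the family were taken from the deposited table of called genes by their description, which had to name a NAC domain, and 1 further locus with such a description is not analysed here. This gave 40 genes among the 6740 of the table. The TAIR10.1 reference annotation describes 104 other genes in this way, these 40 among them. The table lists genes with at least 1 call, and the remaining 64 are not in it and were not analysed here.

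The family works mainly by binding promoters, often as dimers, and different branches are known for different tasks. Some members answer drought and the hormone abscisic acid (ABA), some drive leaf senescence, others build xylem vessels, phloem or the root cap, and some are held at membranes until a signal releases them. ABA is bound by PYR/PYL receptors, which then block clade A phosphatases and so free SnRK2 kinases to act on ABA-dependent transcription.

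RNA was sequenced from whole 9-day-old seedlings of the Col-0 ecotype of Arabidopsis thaliana, either wild type or a pyl duodecuple line mutated in most of its PYR/PYL receptor genes. Seedlings of each genotype spent 24 h on filter paper wetted with half-strength MS medium (control), 100 µM ABA or 300 mM mannitol, an osmoticum that draws water out of cells. There were 6 groups of 3 libraries, and the authors deposited 1 level per group. The levels are read as FPKM, which correct fragment counts for library size and transcript length. Replicate values, depths and p-values are not in these files, so no level has an error and no test could be run. A gene "rose" or "fell" only where the authors called it so against the control of its own genotype, by a rule the sources used here do not state. Other ratios are given as values and were not tested. Of 14 PYR/PYL receptor genes 6 were in the table, and in control seedlings PYL5, PYL8 and PYL4 were 6.92-fold, 3.08-fold and 1.63-fold lower in the mutant, while PYR1, PYL6 and PYL12 were 1.05-fold, 3.603-fold and 3.87-fold higher. The labels do not name the mutated receptor genes, and a mutated gene can still be transcribed. In whole seedlings, fewer cells of a type and less RNA per cell cannot be told apart.

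Before the values, the upstream sequences of a few members are shown, because the rises under ABA raise the question of whether ABA-response elements lie there. The 250 bases before each annotated start were read from the TAIR10.1 genome and searched on both strands for ACGTGG and ACGTGT, core forms of the ABA-response element bound by ABI5-like bZIP factors. At least 1 of them was found in 13 of the 40 NAC windows (32.5%), in 21.5% of 6557 windows of table genes and in 16.0% of all 27437 windows of protein-coding genes. Among the 10 NAC genes that rose under ABA in the wild type 5 windows held a core (50%), as did 34.0% of windows of all table genes that rose there. None of the 6 NAC genes that fell under ABA had one, and of all table genes that fell there 16.9% did. The split was similar under mannitol. A core was present in 8 of 19 NAC genes that rose in the wild type (42.1%, against 26.9% of table genes). In the mutant it was present in 7 of 19 (36.8%, against 25.3%). None of the 7 and 10 NAC genes that fell under mannitol had one, against 17.7% and 18.6%. These are matches of letters and not shown to be bound. The sequences below are those of 4 members that rose under ABA and had a match, with the cores in capitals. Where both forms overlap on opposite strands the capitals run together.
NAC019, chr1:19698483-19698732, minus strand: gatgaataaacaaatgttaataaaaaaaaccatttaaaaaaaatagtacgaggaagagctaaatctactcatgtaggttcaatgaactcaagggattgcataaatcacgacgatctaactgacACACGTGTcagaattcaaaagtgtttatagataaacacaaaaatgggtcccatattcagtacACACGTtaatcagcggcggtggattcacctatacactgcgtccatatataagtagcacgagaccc
NAC032, chr1:29099589-29099838, plus strand: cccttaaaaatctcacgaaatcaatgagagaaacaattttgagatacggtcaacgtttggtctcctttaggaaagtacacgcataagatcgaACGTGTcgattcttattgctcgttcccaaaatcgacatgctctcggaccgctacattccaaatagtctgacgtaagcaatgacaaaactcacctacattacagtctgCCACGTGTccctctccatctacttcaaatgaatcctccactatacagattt
RD26, chr4:13709171-13709420, minus strand: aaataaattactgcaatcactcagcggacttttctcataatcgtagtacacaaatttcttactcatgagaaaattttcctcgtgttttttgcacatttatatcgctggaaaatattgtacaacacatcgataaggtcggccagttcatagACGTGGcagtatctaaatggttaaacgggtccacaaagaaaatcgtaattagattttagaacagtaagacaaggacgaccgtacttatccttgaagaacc
NAC003, chr1:430721-430970, minus strand: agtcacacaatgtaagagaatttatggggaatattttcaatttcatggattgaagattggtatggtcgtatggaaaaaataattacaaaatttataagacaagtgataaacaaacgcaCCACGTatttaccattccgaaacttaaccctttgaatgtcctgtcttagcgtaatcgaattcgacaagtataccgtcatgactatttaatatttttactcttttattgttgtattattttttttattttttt

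NAC019 had 3 matches in this window, 2 of them overlapping in a palindrome, NAC032 also had 3, and the other members shown had 1. The windows of NAC055, ATAF1, ATAF2 and NAC047, described below, had none. The 7-letter form ACGTGTC was present in 4 NAC windows (10%), in 5.06% of table windows and in 3.68% of all windows. The palindrome CACGTG was present in 3 NAC windows, or 7.5%, in 8.49% of table windows and in 6.49% of all windows. CATGTG, a sequence that NAC proteins of the drought branch are known to bind, was present in 4 NAC windows (10%), in 13.4% of table windows and in 11.1% of all windows.

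Levels differed widely between members. In the wild-type control the NAC genes ran from 0.0260 FPKM for AT3G12910 to 65.9 FPKM for ATAF2, with a median of 2.20 FPKM against 7.55 FPKM for all table genes. Of the 40 genes 15 reached 5 FPKM there and 10 stayed below 1 FPKM. ATAF2, ATAF1 and NAC032 together made up 44.0% of the summed NAC level. That sum was 278.9 FPKM in the wild-type control, 553.6 with ABA and 749.6 with mannitol, and 300.3, 359.0 and 648.8 FPKM in the matching mutant groups. For 13 members the highest of the 6 levels was in the mannitol-treated duodecuple line and for 11 in the mannitol-treated wild type.

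**Figure D1:**
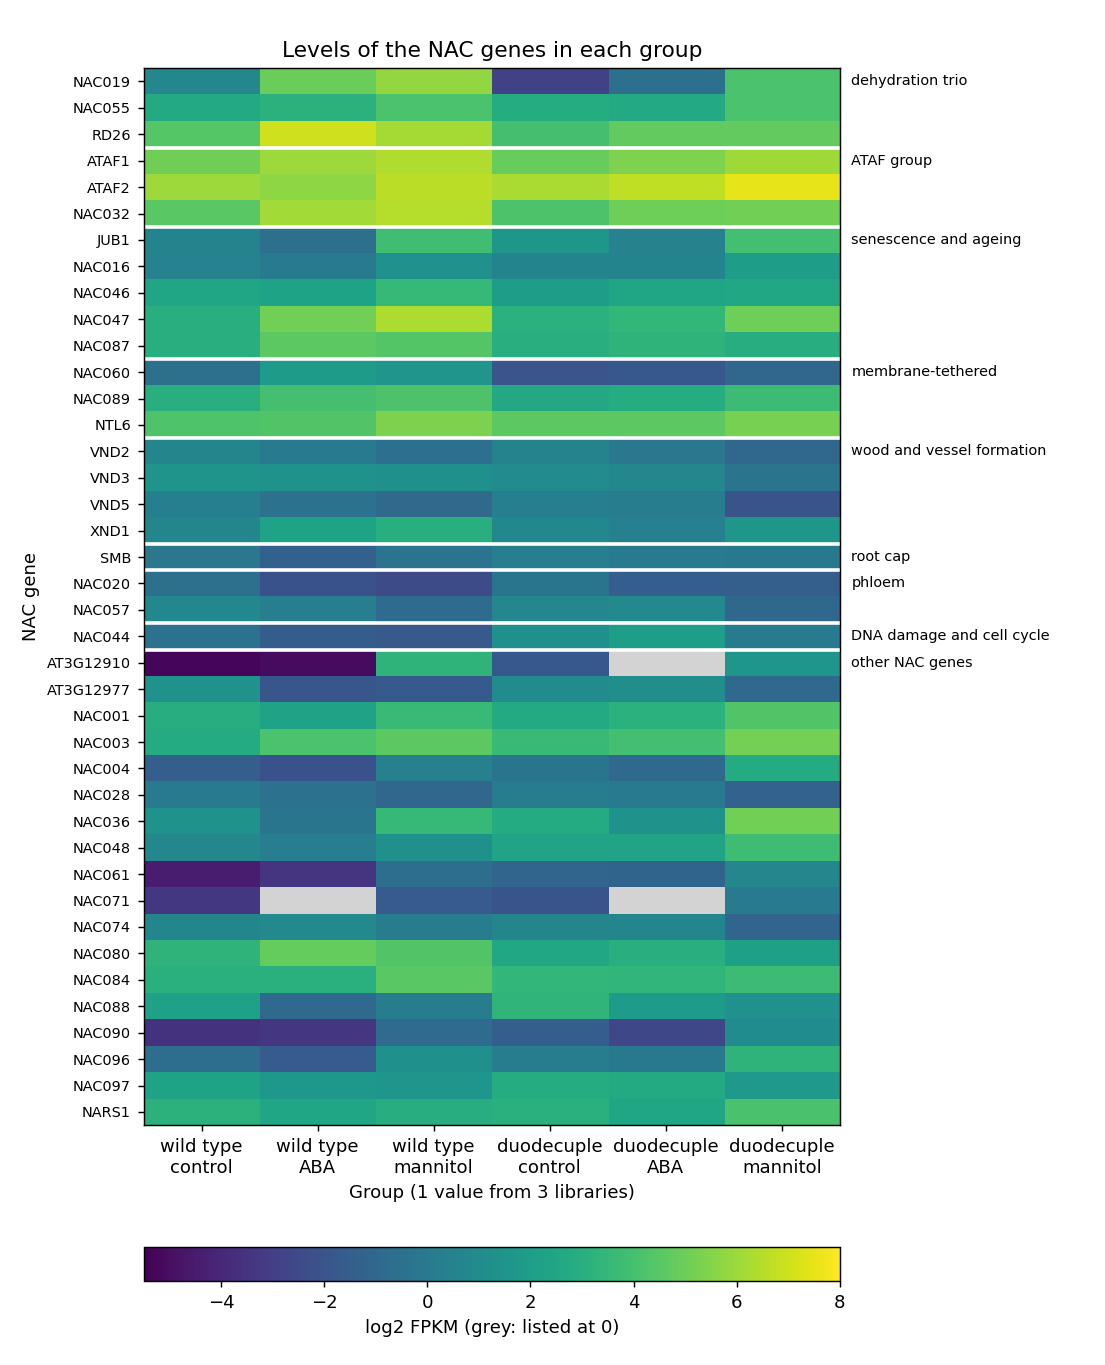
Heat map of log2 FPKM for 40 NAC genes (rows, by role) in 6 groups (columns), 1 value per group from 3 libraries, grey where a gene is listed at 0. ATAF2, ATAF1, NAC032 and RD26 are among the brightest rows, and the vessel, phloem and root cap genes stay below 8 FPKM in every group.

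ABA raised the level of 10 NAC genes in the wild type (25%, against 17.6% of the whole table) and lowered 6 (15%, against 27.3%), so that 40% of the family and 44.9% of the table were called. The median log2 ratio of the 40 genes was -0.24, beside -0.31 for the table, and over the NAC genes that reached 5 FPKM in either group it was 1.08. A gene can reach this minimum through its higher group alone. The table median was not taken at this minimum, so the filtered NAC medians have no counterpart. In the duodecuple line ABA raised 1 NAC gene, NAC019 (2.5%, against 2.49% of the table), and lowered 4 (10%, against 2.79%; either direction 5.28%), with a median log2 ratio of -0.03 for both the NAC genes and the table, and of 0.22 over the NAC genes at that minimum. Mannitol raised 19 NAC genes in the wild type (47.5%, against 33.1%) and lowered 7 (17.5%, against 35.3%), and 68.4% of the table was called in either direction. In the duodecuple line it raised 19 (47.5%, against 23.3%) and lowered 10 (25%, against 27.2%), beside 50.5% of the table called in either direction. Median log2 ratios under mannitol were 1.16 and 0.88 for the NAC genes and -0.20 and -0.29 for the table. Since the table holds called genes alone, its shares are those of called genes and not of the genome. Most of the rises concerned genes of at least 5 FPKM in the higher group, 9 of 10 under ABA and 16 of 19 under mannitol in the wild type and 14 of 19 under mannitol in the mutant. No NAC gene that fell in the wild type reached 5 FPKM in the comparison, and 1 of the 10 that fell under mannitol in the mutant did. For rises the higher group is the treated one. These counts at 5 FPKM were not taken over the table either, so no conclusion about the family is drawn from them.

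**Figure D2:**
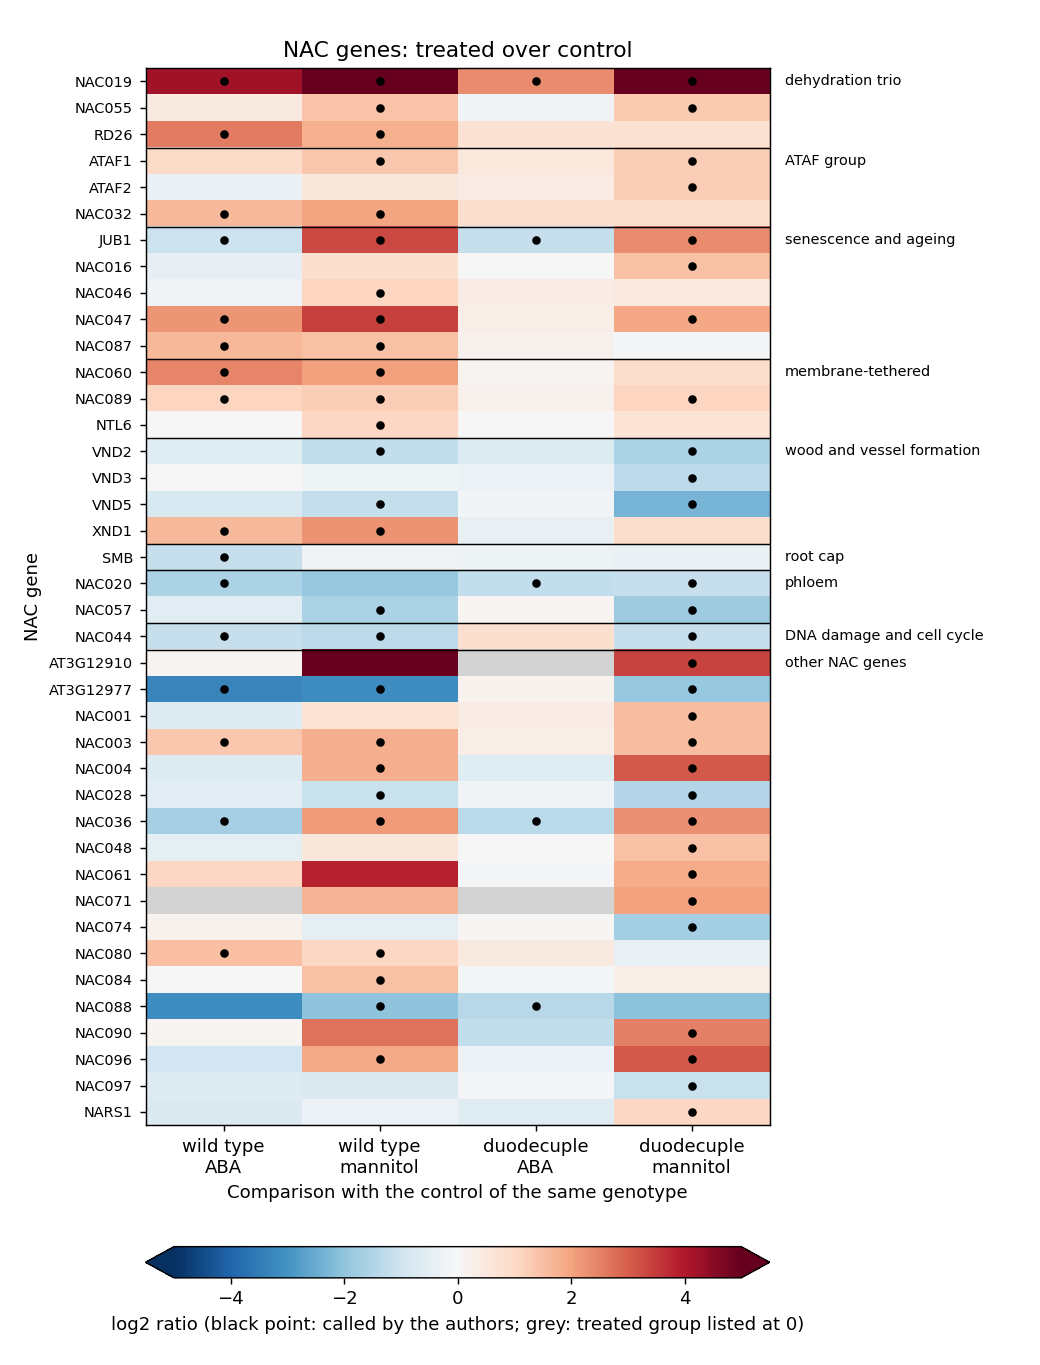
Heat map of the log2 ratio of treated over control for 40 NAC genes (rows, by role) in 4 comparisons (columns), with black points where the authors called a change and grey where the treated group is listed at 0. Calls are dense in both mannitol columns, with 26 and 29 of 40, and sparse in the duodecuple ABA column, with 5.

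The drought branch of NAC019, NAC055 and RD26, known to bind the promoter of the dehydration gene ERD1, differed between its 3 genes in which treatments raised them. NAC019 (AT1G52890) stood at 1.70 FPKM in the wild-type control, 31.6 with ABA and 55.5 with mannitol, and at 0.137, 0.708 and 18.2 FPKM in the matching mutant groups. It was low in both controls and high in both mannitol groups, and in the ABA-treated mutant it stayed below the wild-type control. In the wild type NAC019 rose 18.5-fold with ABA and 32.6-fold with mannitol, and it rose 5.16-fold and 133-fold in the duodecuple line. With JUB1 and NAC036 it is one of 3 NAC genes called in all 4 comparisons. The large mannitol ratio of the mutant starts from 0.137 FPKM, 12.4-fold below the wild-type control, and its mannitol level was 3.04-fold below that of the wild type.

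RD26 (AT4G27410), named for its response to desiccation, stood at 21.4 FPKM in the wild-type control, 129.7 with ABA and 72.6 with mannitol, and at 16.3, 26.9 and 27.3 FPKM in the matching mutant groups. The wild-type ABA group was the highest, and both treated duodecuple groups lay far below both treated wild-type groups. In the wild type RD26 rose 6.05-fold with ABA and 3.39-fold with mannitol. It had no call in the mutant, where the ratios were 1.65-fold and 1.68-fold. NAC055 (AT3G15500) stood at 6.76 FPKM in the wild-type control, 9.19 with ABA and 18.2 with mannitol, and at 7.35, 6.77 and 18.2 FPKM in the matching mutant groups. Its mannitol levels were alike in both genotypes, and all other groups lay between 6.76 and 9.19 FPKM. NAC055 rose under mannitol 2.69-fold in the wild type and 2.47-fold in the duodecuple line, and had no call under ABA, with ratios of 1.36-fold higher and 1.09-fold lower. ERD1 (AT5G51070), whose promoter these 3 factors are known to bind, rose 4.90-fold to 435 FPKM under mannitol in the wild type and 2.65-fold in the mutant, without a call under ABA in either.

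The ATAF group, close relatives that act in stress, wounding and pathogen responses, includes ATAF2, the NAC gene of highest level in 5 of the 6 groups. ATAF2 (AT5G08790) stood at 65.9 FPKM in the wild-type control, 52.96 with ABA and 98.2 with mannitol, and at 78.3, 103 and 184 FPKM in the matching mutant groups. The mannitol-treated mutant was the highest group and the ABA-treated wild type the lowest. ATAF2 rose 2.35-fold under mannitol in the duodecuple line, its single call, against a ratio of 1.49-fold in the wild type. ATAF1 (AT1G01720), which is known to activate the ABA synthesis gene NCED3, stood at 33.8 FPKM in the wild-type control, 65.6 with ABA and 85.1 with mannitol, and at 28.6, 41.4 and 67.5 FPKM in the matching mutant groups. In both genotypes mannitol gave the highest level and ABA an intermediate one. ATAF1 rose 2.52-fold and 2.36-fold under mannitol, and its ABA ratios of 1.94-fold and 1.45-fold had no call. NAC032 (AT1G77450) stood at 23.2 FPKM in the wild-type control, 71.1 with ABA and 90.2 with mannitol, and at 18.9, 32.9 and 35.2 FPKM in the matching mutant groups. Both treated wild-type groups lay above all 3 mutant groups. Wild-type NAC032 rose 3.07-fold with ABA and 3.89-fold with mannitol, and neither mutant ratio, 1.74-fold and 1.86-fold, was called. ATAF1 and ATAF2 overlap genes on the opposite strand, by 344 and 158 bases at the widest, as JUB1 and VND2 do by 107 and 270 bases, and VND5 overlaps a gene on its own strand by 148 bases. The strand of the counted reads is not given in the sources used here.

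**Figure D3:**
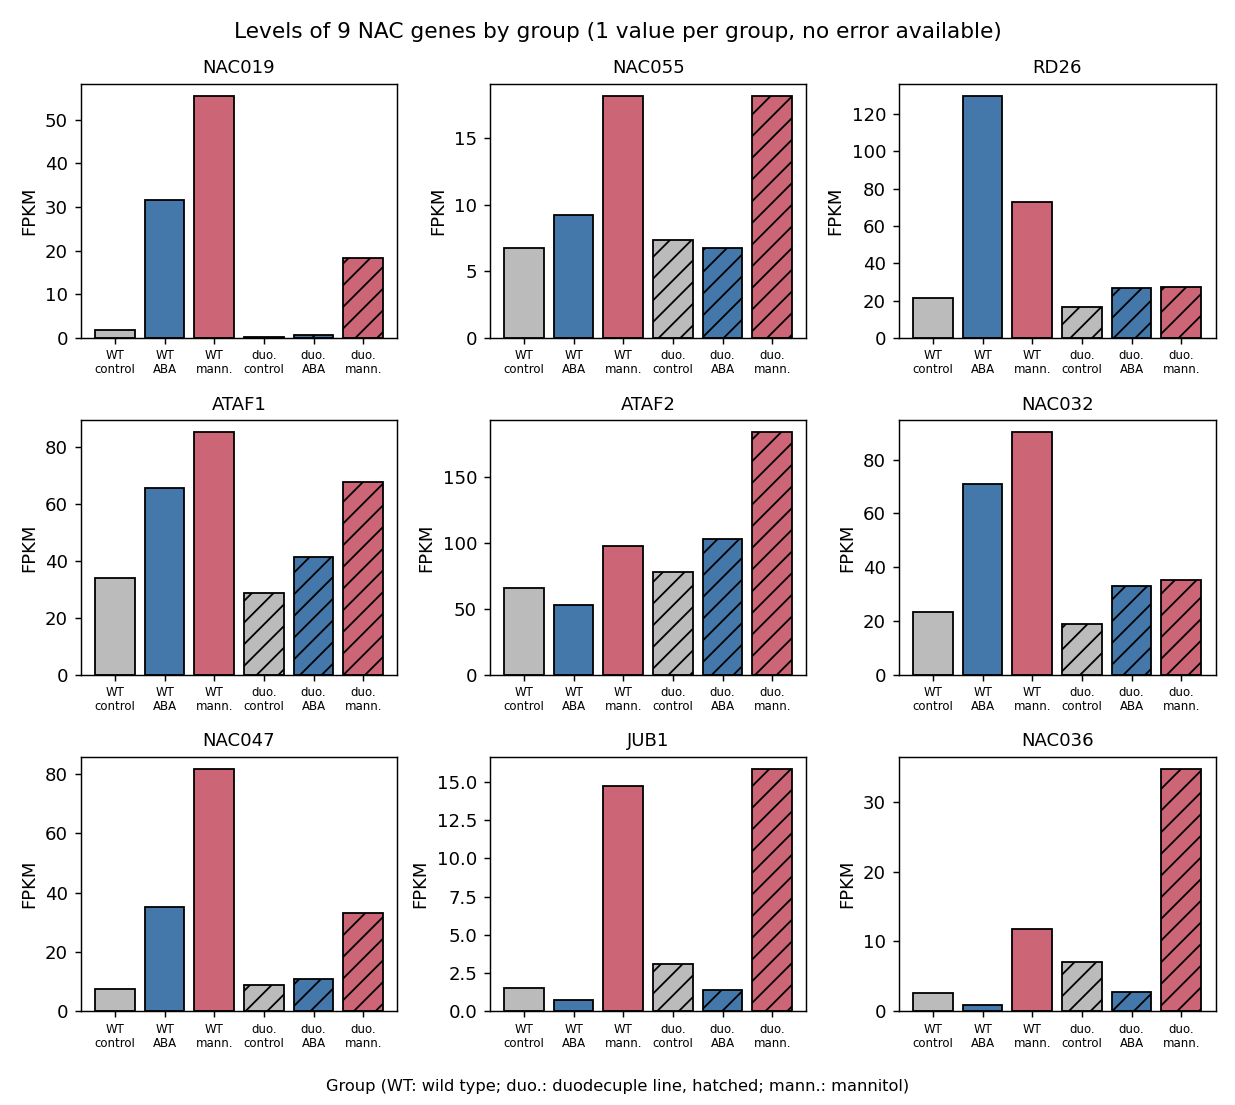
Bar plots of FPKM for 9 NAC genes in 6 groups, 1 value per group with no error available, hatched for the duodecuple line. RD26 is highest in the ABA-treated wild type at 129.7 FPKM, ATAF2 in the mannitol-treated duodecuple line at 184.2 FPKM, and JUB1 and NAC036 are low under ABA and high under mannitol in both genotypes.

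Among members known from leaf ageing, 5 of 9 listed genes were in the table. NAC047 (AT3G04070), known from ethylene-driven leaf movement under waterlogging, stood at 7.66 FPKM in the wild-type control, 35.2 with ABA and 81.6 with mannitol, and at 8.72, 10.9 and 33.04 FPKM in the matching mutant groups. Both treated wild-type groups lay above all 3 mutant groups. In the wild type NAC047 rose 4.60-fold with ABA and 10.6-fold with mannitol, and it rose 3.79-fold under mannitol in the mutant, where ABA had a ratio of 1.25-fold without a call. NAC087 (AT5G18270), which with its relative NAC046 promotes cell death in the root cap, stood at 7.73 FPKM in the wild-type control, 24.7 with ABA and 21.2 with mannitol, and at 8.21, 9.58 and 7.65 FPKM in the matching mutant groups. The treated wild-type groups were high and the other 4 lay between 7.65 and 9.58 FPKM. NAC087 rose 3.19-fold and 2.75-fold in the wild type and had no call in the mutant. NAC046 (AT3G04060), also an activator of chlorophyll breakdown, rose 2.11-fold to 11.8 FPKM under mannitol in the wild type, its single call. NAC016 (AT1G34180), which promotes senescence, rose 2.79-fold to 4.16 FPKM under mannitol in the mutant, and had a ratio of 1.79-fold in the wild type.

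JUB1, a factor known to delay ageing, and NAC036, which is known to restrain leaf growth when overexpressed, fell under ABA and rose under mannitol in both genotypes. JUB1 (AT2G43000) stood at 1.502 FPKM in the wild-type control, 0.708 with ABA and 14.7 with mannitol, and at 3.09, 1.39 and 15.8 FPKM in the matching mutant groups. It fell 2.12-fold and 2.23-fold under ABA and rose 9.79-fold and 5.13-fold under mannitol. NAC036 (AT2G17040) stood at 2.65 FPKM in the wild-type control, 0.844 with ABA and 11.7 with mannitol, and at 7.06, 2.74 and 34.7 FPKM in the matching mutant groups. It fell 3.14-fold and 2.57-fold under ABA and rose 4.43-fold and 4.92-fold under mannitol. In each treatment the mutant level of NAC036 lay above that of the wild type, by 2.66-fold in control, 3.25-fold under ABA and 2.96-fold under mannitol. The ABA and mannitol ratios of a genotype share its control group.

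Membrane-tethered members carry an anchor and enter the nucleus once released. Of 14 listed genes 3 were in the table, and all 3 rose under mannitol in the wild type, where 33.1% of the table and 47.5% of the NAC genes did. NTL6 (AT3G49530), which activates pathogenesis-related genes in the cold, stood at 19.7 FPKM in the wild-type control, 20.2 with ABA and 39.95 with mannitol, and at 23.95, 24.5 and 38.2 FPKM in the matching mutant groups. Both mannitol groups were highest, at 39.95 and 38.2 FPKM, and the other 4 lay between 19.7 and 24.5 FPKM, with a call in the wild type at 2.02-fold and none in the mutant at 1.59-fold. NAC089 (AT5G22290), known from the endoplasmic reticulum stress response, stood at 7.82 FPKM in the wild-type control, 16.5 with ABA and 18.5 with mannitol, and at 6.36, 7.30 and 13.5 FPKM in the matching mutant groups. In the wild type it rose 2.11-fold with ABA and 2.36-fold with mannitol, and it rose 2.12-fold under mannitol in the mutant. NAC060 (AT3G44290), which dampens ABA signalling in the response to sugar, was low throughout, at 0.711 FPKM in the wild-type control, 3.90 with ABA and 2.95 with mannitol, and at 0.265, 0.295 and 0.482 FPKM in the matching mutant groups. It rose 5.49-fold and 4.15-fold in the wild type, and none of its mutant levels reached the wild-type control.

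Genes of vessel, phloem, root cap and cell cycle control were expressed at low levels and, apart from XND1, carried falls alone. Of 14 listed genes of wood and vessel formation 4 were in the table. The vessel regulators VND2 (AT4G36160) and VND5 (AT1G62700) fell under mannitol, 2.37-fold and 2.27-fold in the wild type and 3.03-fold and 4.99-fold in the mutant, from controls between 1.26 and 1.61 FPKM. VND3 (AT5G66300) fell 2.49-fold in the mutant alone, from 2.03 to 0.817 FPKM. XND1 (AT5G64530), a repressor of xylem vessel differentiation, stood at 1.64 FPKM in the wild-type control, 5.02 with ABA and 7.75 with mannitol, and at 1.71, 1.32 and 3.14 FPKM in the matching mutant groups. It rose 3.07-fold with ABA and 4.74-fold with mannitol in wild-type seedlings, without a call in the mutant.

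The phloem gene NAC020 (AT1G54330) fell under ABA in both genotypes, 2.99-fold and 2.32-fold, and under mannitol in the mutant, 2.21-fold. Its wild-type mannitol ratio of 3.71-fold lower had no call, at 0.688 and 0.185 FPKM. NAC057 (AT3G17730) fell under mannitol in both genotypes, from 1.75 to 0.584 FPKM in wild-type seedlings and from 1.68 to 0.494 FPKM in the mutant. SMB (AT1G79580), which controls root cap maturation, fell 2.20-fold under ABA in wild-type seedlings, where it stood at 0.898 and 0.409 FPKM, and is the single member without a call under mannitol in either genotype. NAC044 (AT3G01600), known from cell cycle arrest after DNA damage, stood at 0.761 FPKM in the wild-type control, 0.345 with ABA and 0.305 with mannitol, and at 2.40, 4.17 and 1.09 FPKM in the matching mutant groups. It fell in the wild type under both treatments, 2.21-fold and 2.50-fold, and under mannitol in the mutant, 2.21-fold. Under ABA its mutant level was 1.74-fold above control without a call, and 12.1-fold above the ABA-treated wild type. No listed gene of organ boundaries and lateral roots was in the table.

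Markers of leaf and root were read in the same 6 groups, and their calls differed between the 2 lists. The small Rubisco subunit gene RBCS1A fell under mannitol in the wild type, by 5.81-fold, as all 3 leaf markers did, against 35.3% of the table. None of these 3 was called under mannitol in the mutant, where 50.5% of the table was. Of 3 root markers in the table, out of 4 listed, 2 rose under mannitol in the wild type and 2 fell in the mutant, against 33.1% and 27.2% of the table. They were COBL9, EXPA7 and PRP3, and in the mutant PRP3 went from 22.03 to 4.20 FPKM. PIN2 was not in the table, and whether these 3 genes follow the root as a whole was not measured. Under ABA the antenna gene CAB3 fell in both genotypes, and the other 2 leaf markers and the root markers had no call. None of these 6 genes was at 0 in any group. The leaf markers summed to 19206, 13393 and 3895 FPKM in wild-type control, ABA and mannitol and to 17305, 15388 and 11131 FPKM in the mutant. The root markers summed to 22.6, 16.02 and 63.1 FPKM in the wild type and to 34.02, 25.8 and 11.8 FPKM in the mutant, in the same order. Their part in the NAC values was not tested.

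The other 18 members include NAC036, described above, and several for which no role is given here. NAC003 (AT1G02220) stood at 7.03 FPKM in the wild-type control, 17.9 with ABA and 24.5 with mannitol, and at 12.2, 15.5 and 35.8 FPKM in the matching mutant groups. It rose 2.55-fold under ABA in the wild type and 3.49-fold and 2.92-fold under mannitol. NAC080 (AT5G07680), a target of the microRNA miR164, stood at 9.87 FPKM in the wild-type control, 28.2 with ABA and 20.1 with mannitol, and at 5.82, 7.92 and 4.50 FPKM in the matching mutant groups. The treated wild-type groups were the highest and all mutant groups lay below the wild-type control. NAC080 rose 2.86-fold and 2.03-fold in the wild type, and under mannitol the mutant lay 1.29-fold below its control without a call. NAC084 (AT5G14000) stood at 8.42 FPKM in the wild-type control, 8.51 with ABA and 23.6 with mannitol, and at 10.8, 10.3 and 13.4 FPKM in the matching mutant groups. The mannitol-treated wild type was the highest group, and its rise of 2.80-fold was the single call.

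Mannitol gave the largest rises of the duodecuple line, after NAC019, in 3 genes of low control level. AT3G12910 stood at 0.0260 FPKM in the wild-type control, 0.0289 with ABA and 9.76 with mannitol, and at 0.295, 0 and 3.04 FPKM in the matching mutant groups. It rose 10.3-fold in the mutant. The wild-type ratio of 376-fold was larger, from a control near 0, and was left without a call by the authors. NAC004 (AT1G02230) stood at 0.372 FPKM in the wild-type control, 0.230 with ABA and 1.32 with mannitol, and at 0.841, 0.546 and 7.06 FPKM in the matching mutant groups. It rose 3.54-fold in the wild type and 8.39-fold in the mutant. NAC096 (AT5G46590), a factor of the dehydration response, stood at 0.657 FPKM in the wild-type control, 0.338 with ABA and 2.44 with mannitol, and at 1.18, 0.975 and 9.85 FPKM in the matching mutant groups. It rose 3.72-fold in the wild type and 8.32-fold in the mutant. NAC071 (AT4G17980), known from the rejoining of cut stems and closely related to NAC096, was listed at 0 in both ABA groups and rose 4.04-fold under mannitol in the mutant, to 1.02 FPKM.

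AT3G12977 had the steepest called fall. It stood at 2.70 FPKM in the wild-type control, 0.272 with ABA and 0.316 with mannitol, and at 2.03, 2.29 and 0.541 FPKM in the matching mutant groups. Both treated wild-type groups and the mannitol-treated mutant were low, while the ABA-treated mutant lay with the controls. Wild-type AT3G12977 fell 9.90-fold with ABA and 8.52-fold with mannitol, and it fell 3.76-fold under mannitol in the mutant. NAC028 (AT1G65910) fell under mannitol 2.18-fold in the wild type and 2.76-fold in the mutant. NAC074 (AT4G28530), known from the death of stigma cells, and NAC097 (AT5G50820) fell under mannitol in the mutant alone, 3.28-fold and 2.14-fold.

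NAC088 (AT5G18300) stood at 4.64 FPKM in the wild-type control, 0.538 with ABA and 1.15 with mannitol, and at 10.2, 3.92 and 2.50 FPKM in the matching mutant groups. It fell 4.04-fold under mannitol in the wild type and 2.61-fold under ABA in the mutant, while the ratios of 8.63-fold lower under ABA in the wild type and 4.10-fold lower under mannitol in the mutant had no call. All 444 bases of the annotated gene lie inside AT5G18290, an aquaporin gene on the opposite strand. Without the strand of the reads these genes cannot be told apart. AT5G18290 stood at 9.53, 2.34 and 5.24 FPKM in the wild type and 19.9, 11.9 and 19.4 FPKM in the mutant, in the order control, ABA and mannitol.

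With mannitol, part of the calls was shared by both genotypes. Of the 19 NAC genes that rose in each genotype 10 were shared, 52.6% of each list, compared with 45.6% of the wild-type and 64.7% of the duodecuple list over the whole table. Of the 7 and 10 NAC genes that fell 6 were shared, or 85.7% and 60% of the lists, compared with 43.3% and 56.1% over the table. The 9 genes that rose in the wild type without a call in the mutant were NAC032, RD26, NAC046, NAC060, NTL6, NAC080, NAC084, NAC087 and XND1. The 9 that rose in the mutant without a call in the wild type were ATAF2, NAC001, NAC016, NAC048, NAC061, NAC071, NAC090, NARS1 and AT3G12910, and they make up all NAC genes on the authors' list of 555 genes induced by mannitol in the mutant alone, which holds 22.5% of the NAC genes and 8.23% of the table. In 8 of these 9 the wild-type ratio had the same sign, and in 4 it was itself at least 2-fold. NARS1 (AT3G15510), a regulator of seed development, was the exception, at 9.15 and 7.55 FPKM in the wild type and 8.42 and 17.2 FPKM in the mutant. On the authors' list of 720 genes lowered in the mutant alone stood NAC020, NAC074, NAC097 and VND3, or 10% of the NAC genes against 10.7% of the table. The deposited calls themselves give 806 genes that fell in the mutant alone. With ABA, NAC019 was the 1 rise of both genotypes, 10% of the wild-type and 100% of the duodecuple list, compared with 9.62% and 67.9% over the table. Of the 6 and 4 NAC genes that fell with ABA, NAC020, NAC036 and JUB1 were shared, 50% and 75% of the lists, compared with 4.30% and 42.0% over the table.

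**Figure D4:**
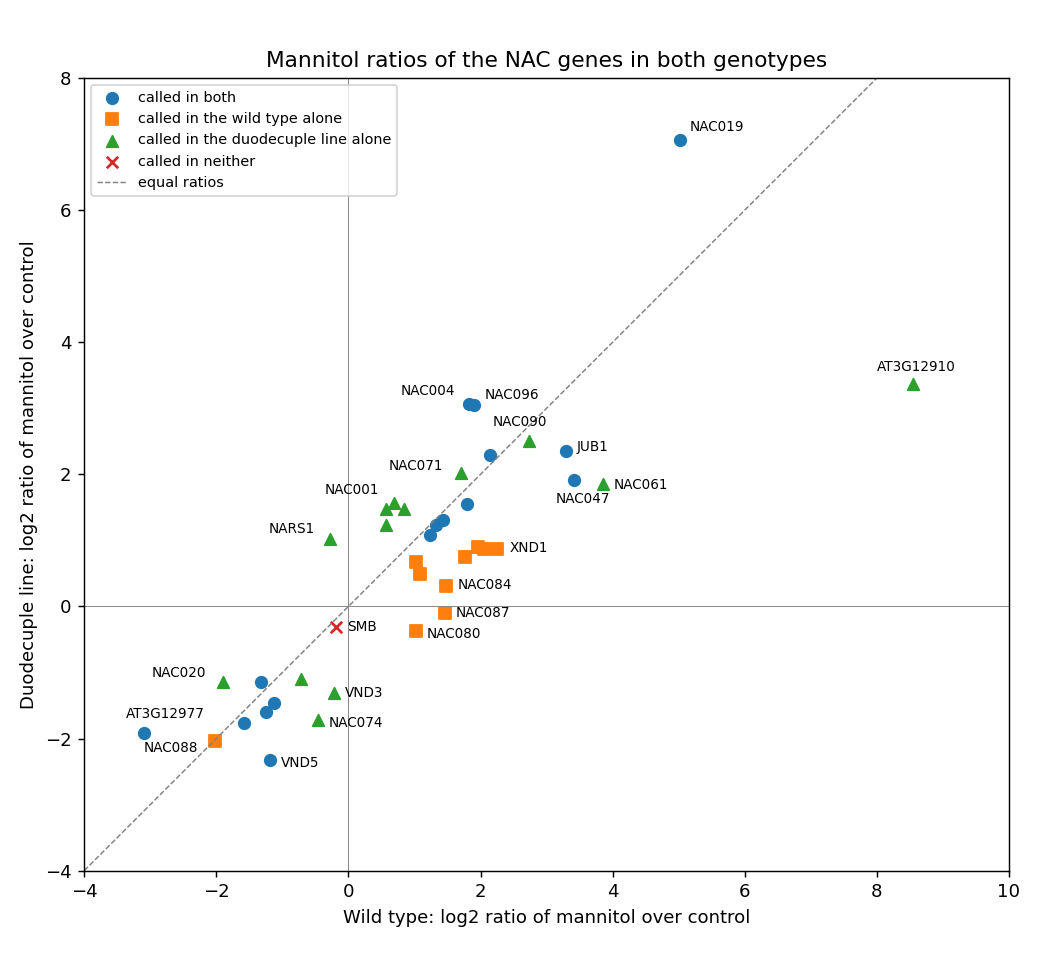
Scatter plot of the log2 ratio of mannitol over control for 40 NAC genes in the wild type (x axis) and in the duodecuple line (y axis), with marker shape for the authors' calls and a dashed line of equal ratios. Genes that rose in the wild type alone lie below the line, with XND1 at 2.25 and 0.87, NAC080 at 1.02 and -0.37 and NAC087 at 1.46 and -0.10. NAC088, which fell in the wild type alone by the calls, lies near the line. Genes called in the duodecuple line alone lie above and below the line.

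Pairs of members with alike upstream sequence are shown next, because their values can be set side by side. Among 780 pairs of NAC windows the longest identical run had a median of 9 bases. Runs of 15 bases or more were found in 3 pairs. NAC003 and NAC048 shared 22 bases, the longest run of all, NAC061 and NAC090 shared 15, and the third pair, with a run of 17 bases, is not described here. The windows of the partners not yet shown follow, with ACGTGG and ACGTGT in capitals.
NAC048, chr3:1172437-1172686, plus strand: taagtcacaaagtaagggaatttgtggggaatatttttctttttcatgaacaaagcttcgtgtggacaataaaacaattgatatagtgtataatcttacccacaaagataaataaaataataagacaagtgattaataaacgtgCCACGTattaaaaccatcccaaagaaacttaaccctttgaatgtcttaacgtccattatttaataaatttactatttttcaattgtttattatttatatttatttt
NAC061, chr3:16024520-16024769, minus strand: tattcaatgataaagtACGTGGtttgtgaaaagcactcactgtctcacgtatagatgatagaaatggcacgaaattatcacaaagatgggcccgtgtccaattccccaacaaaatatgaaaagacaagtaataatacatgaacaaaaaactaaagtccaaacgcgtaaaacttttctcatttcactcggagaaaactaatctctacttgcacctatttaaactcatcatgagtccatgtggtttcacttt
NAC090, chr5:7410103-7410352, minus strand: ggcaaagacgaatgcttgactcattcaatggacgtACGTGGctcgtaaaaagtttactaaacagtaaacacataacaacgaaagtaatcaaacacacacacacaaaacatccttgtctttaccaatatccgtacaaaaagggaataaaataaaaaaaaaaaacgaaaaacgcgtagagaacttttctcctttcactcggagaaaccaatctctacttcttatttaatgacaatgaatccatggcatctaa
The shared run of NAC003 and NAC048 is gaaacttaaccctttgaatgtc, and that of NAC061 and NAC090 is tttcactcggagaaa.

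NAC048 (AT3G04420) stood at 1.65 FPKM in the wild-type control, 1.21 with ABA and 2.46 with mannitol, and at 5.13, 5.25 and 14.2 FPKM in the matching mutant groups. Like NAC003 it was highest with mannitol in each genotype and higher in the mutant than in the wild type in control and with mannitol, and it rose 2.77-fold under mannitol in the mutant. Unlike NAC003 it had no call in the wild type, where its ABA level was 1.36-fold below control and that of NAC003 2.55-fold above. NAC061 (AT3G44350) stood at 0.0448 FPKM in the wild-type control, 0.0912 with ABA and 0.647 with mannitol, and at 0.473, 0.456 and 1.71 FPKM in the matching mutant groups. NAC090 (AT5G22380), known as a repressor of early senescence, stood at 0.0881 FPKM in the wild-type control, 0.0976 with ABA and 0.585 with mannitol, and at 0.370, 0.160 and 2.11 FPKM in the matching mutant groups. Both were below 0.1 FPKM in the wild-type control and under ABA, and both rose under mannitol in the mutant, 3.61-fold and 5.69-fold. Their wild-type mannitol ratios of 14.5-fold and 6.65-fold had no call. NAC001 (AT1G01010) stood at 7.61 FPKM in the wild-type control, 4.82 with ABA and 12.2 with mannitol, and at 6.81, 8.80 and 20.1 FPKM in the matching mutant groups. It rose 2.95-fold under mannitol in the mutant.

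Members that lie next to each other on a chromosome did not always move alike. NAC003 and NAC004 are adjacent, and both rose under mannitol in both genotypes, while under ABA in the wild type NAC003 rose and NAC004 was 1.62-fold lower without a call. NAC046 and NAC047 are adjacent. NAC047 rose in 3 comparisons and NAC046 in 1. NAC055 and NARS1 are adjacent as well, and mannitol raised NAC055 in both genotypes and NARS1 in the mutant alone.

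Levels of the genotypes were compared for members that reached 5 FPKM in either group, as ratios that carry no call and were not tested. A gene can pass this minimum through the group where it is high, so no conclusion is drawn from these counts. In control seedlings 3 of 19 NAC genes were at least 2-fold higher in the mutant and 0 lower, against 5.42% and 4.07% of table genes at this minimum. They were NAC048 at 3.10-fold, NAC036 at 2.66-fold and NAC088 at 2.21-fold. Under ABA 2 of 19 were higher and 8 lower, against 22.5% and 21.4%. The lower ones were NAC019 at 44.6-fold, RD26 at 4.82-fold, XND1 at 3.79-fold, NAC080 at 3.57-fold, NAC047 at 3.22-fold, NAC087 at 2.57-fold, NAC089 at 2.26-fold and NAC032 at 2.16-fold. The ABA-treated wild type of these ratios is also that of the wild-type ABA comparison. NAC048 was 4.32-fold higher and NAC097 2.13-fold higher. Under mannitol 5 of 23 were higher and 9 lower, against 17.2% and 21.6%. The higher ones were NAC048 at 5.77-fold, NAC004 at 5.37-fold, NAC096 at 4.03-fold, NAC036 at 2.96-fold and NARS1 at 2.27-fold. The lower ones ran from NAC046 at 2.03-fold to NAC080 at 4.46-fold.

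The difference of the responses, the mutant log2 ratio minus that of the wild type, was taken for genes that reached 5 FPKM in any of the 4 groups. It was at least 2-fold lower under ABA for 7 of 21 NAC genes and higher for 2, against 17% and 21.8% of table genes. Among these 21 genes XND1 had the largest lower value at 3.97-fold, followed by RD26 and NAC047 at 3.67-fold each, and NAC088 was 3.30-fold higher. XND1 passed the minimum in the ABA-treated wild type alone, at 5.02 FPKM, and that level also enters its value, so its rank is not read as a result. Among members below the minimum NAC060 was 4.93-fold lower, and AT3G12977 and NAC044 were 11.1-fold and 3.83-fold higher. Under mannitol it was at least 2-fold lower for 8 of 25 and higher for 4, against 17.8% and 17%. AT3G12910 was 36.4-fold lower, a value that rests on its uncalled wild-type ratio from 0.0260 FPKM. NAC087 was 2.95-fold lower and NAC047 2.81-fold lower, while NAC019 was 4.08-fold higher. A higher value for NAC019 goes with a lower mannitol level in the mutant, since its control there was near 0.

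Genes known as targets of NAC proteins were counted from lists that hold published targets of several members. Of 11 genes of chlorophyll breakdown and senescence 10 were in the table, and wild-type seedlings had 7 of them higher with ABA and 10 with mannitol, against 2 and 6 in the duodecuple line, with none falling. Among all table genes, 17.6% and 33.1% rose in the wild-type comparisons and 2.49% and 23.3% in those of the mutant. The 2 that rose with ABA in the mutant were SWEET15, from 0.357 to 17.2 FPKM, and SAG113, from 0.663 to 1.66 FPKM. In the wild type ABA raised SWEET15 from 0.981 to 529 FPKM and SAG113 from 4.15 to 97.8 FPKM. The pheophorbide oxygenase gene PAO, whose enzyme opens the chlorophyll ring, rose in wild-type seedlings from 33.04 to 118 FPKM with ABA and 224 FPKM with mannitol. In the duodecuple line PAO stood at 29.5, 37.7 and 72.6 FPKM, with a call under mannitol at 2.46-fold. SGR2, a relative of the magnesium dechelatase that starts chlorophyll breakdown, rose 32.3-fold under mannitol in the wild type and 3.75-fold in the mutant, to 47.6 and 2.46 FPKM. NYC1, a chlorophyll b reductase, rose 3.63-fold in the mannitol-treated wild type and had no other call.

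Of 5 targets of mitochondrial retrograde signalling 4 were in the table, and 3 rose under mannitol in each genotype. The alternative oxidase gene AOX1A rose 2.08-fold and 2.21-fold and OM66 rose 4.86-fold and 6.33-fold. UGT74E2, an auxin-conjugating glycosyltransferase gene, rose 4.77-fold under ABA in the mutant, one of 2 calls of this list there, and none was called under ABA in the wild type. Of the table, 5.28% was called under ABA in the mutant and 44.9% in the wild type. Of 4 genes of salicylate and jasmonate metabolism 3 were in the table. The salicylate synthesis gene ICS1 rose 3.55-fold under mannitol in the mutant and had no wild-type call, and the salicylate glucosyltransferase gene SAGT1 rose under mannitol in both, 3.30-fold and 3.13-fold. SAGT1 also rose 2.10-fold with ABA in wild-type seedlings. The jasmonate-responsive gene VSP1 fell 2.52-fold with ABA in wild-type seedlings and rose 2.76-fold with mannitol in the mutant alone. Of 12 secondary wall targets MYB58 and MYB63 were in the table, and MYB63, an activator of lignin genes, rose 7.92-fold and 4.58-fold under mannitol. MYB58 fell 2.46-fold under ABA in the wild type. Which NAC protein acts on these genes in these seedlings was not measured.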

How the data were processed

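Libraries came from whole seedlings, 3 per group, and groups were taken from the sample titles. The build TAIR10 and the tools TopHat, Cufflinks and Cuffdiff come from the submitters' processing notes, and versions, strand and settings are not given in the sources used here. The authors deposited 1 level per group, read as FPKM, the usual output of Cufflinks, a yes or no call per comparison, and log2 ratios without a pseudocount. Ratios recomputed from the group levels equalled the deposited log2 ratios within 4.7e-05, and folds in the text are from the levels.

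Models per library could not be fitted without replicate values or p-values, and the depth is unknown. Members were matched by description, and symbols, upstream windows and gene order come from RefSeq TAIR10.1, which keeps the nuclear chromosomes of TAIR10. Full values were given by rule to 18 members reaching 20 FPKM or a called 8-fold ratio. NAC055, NAC060, NAC044, NAC048, NAC061, NAC088, NAC089, NAC090 and XND1 were chosen after their values were seen. The upstream sequence of 1 member with a match is not reported here. Gene lists were written from known roles. The members and lists were chosen with earlier results of these data known. Counting was tested on simulated data. Alternatives were minimum levels, pseudocounts, a 4-fold limit and membership by the reference. Python 3.11.15, numpy 2.4.6, pandas 2.3.3 and matplotlib 3.10.9 were used.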

Additional observations from a re-analysis of the deposited data

How the results depend on the processing

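No paired analysis was possible because the deposited columns hold 1 value per group, and for the same reason no replicate could be left out. Counts within 1.5 times, and medians within 1.5-fold, were taken as unmoved, which held for 55 of 108 values, among them all 12 with members taken from the reference annotation. No cause was tested for the others. The limits below remove genes of low level or small ratio by construction.

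With a minimum of 5 FPKM in either group compared, the NAC genes that fell numbered 0 in both wild-type comparisons, 2 under ABA and 1 under mannitol in the mutant, and the 1 rise under ABA in the mutant was lost, leaving 0. The median log2 ratio under ABA then turned from -0.24 to 1.08 in the wild type and from -0.03 to 0.22 in the mutant. Counting every 2-fold ratio gave 7 falls under ABA in the mutant. Called genes 4-fold apart were 4 higher and 1 lower for wild-type ABA, 6 and 2 for wild-type mannitol, 8 and 1 for duodecuple mannitol, with 0 lower for duodecuple ABA. With 1 FPKM added, calls still 2-fold apart were 1 lower for wild-type ABA, 2 lower for wild-type mannitol, 0 higher and 2 lower for duodecuple ABA and 0 lower for duodecuple mannitol. With 5 FPKM added they were 6, 10, 0 and 10 higher in the same order and 0 lower in each. The wild-type mannitol median was then 0.42.

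For ratios between genotypes without a minimum level, 10 NAC genes were at least 2-fold higher and 2 lower in control, 10 higher under ABA and 11 higher under mannitol, and response differences gave 4 higher and 11 lower under ABA and 13 lower under mannitol. From 1 FPKM these were 5 and 1 in control, 7 and 10 higher under ABA and mannitol, 4 higher for the ABA response and 13 lower for the mannitol response. At 4-fold they were 0 higher in control, 1 higher and 2 lower under ABA, 3 higher and 1 lower under mannitol, 0 and 0 for the ABA response and 1 and 1 for the mannitol response. With 1 FPKM added, 1 was higher under ABA and 0 for the ABA response.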
